A study of Mus musculus with 4 samples.

Results

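Collagen chain genes were compared between cultured lung fibroblasts of KrasD12 and wild-type (WT) mice. The members were chosen by name from the array annotation and not by their values, though earlier results of these data were known. Every gene was taken whose symbol reads Col, a number, a and a number, on an array row with exactly 1 annotated symbol. This gave 44 of the 19938 genes with such a row. Col6a5 and Col6a6 had a second row each, and the row with the brighter mean was used. The 44 genes comprised 11 fibrillar chains, 9 network-forming chains, 6 chains of the beaded filament collagen VI, 9 FACIT chains (fibril-associated collagens with interrupted triple helices), 4 transmembrane chains and 5 chains outside these classes (Col7a1, Col15a1, Col18a1, Col26a1 and Col28a1).

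RNA had been measured on 4 Affymetrix mouse gene arrays. Samples KrasD12 A and B came from primary lung fibroblasts of line 493, which carries the oncogenic KrasD12 allele (SKY in the series text), and samples WT A and B from those of line 494. Both lines had been grown out of collagenase-digested lungs of mice aged 3 to 4 weeks, kept in serum-containing medium and left untreated, and the growth protocol calls them myofibroblasts. With 1 line for each genotype, the allele and the line cannot be told apart. The labels leave unsaid whether A and B were grown separately. The p-values below therefore measure only the spread between A and B, which may be technical. How the KrasD12 allele is driven is not given in the sources used here.

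Collagens are secreted or membrane-bound proteins whose chains wind around each other into a triple helix. Fibrillar collagens form the tensile fibrils of the lung interstitium, and fibroblasts are their main source there. Network collagens build basement membranes, collagen VI forms beaded filaments around cells, and FACIT collagens sit on the surface of fibrils. Many collagens are heterotrimers, so a cell needs the transcripts of more than 1 gene to assemble one molecule.

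Each deposited value is a log2 expression value of an array row. All differences are KrasD12 minus WT on this scale, a ± is the moderated standard error (SE) of limma with n = 2 per group, and adjusted p-values are limma's with Benjamini-Hochberg adjustment over all 19938 genes. Column medians were 6.24 and 6.26 for the KrasD12 samples but 5.90 and 5.91 for the WT samples, and the median difference of all genes was 0.26. A gene is therefore said to have risen or fallen only where its adjusted p was under 0.05 with the same sign on both scalings, that is as deposited and again after quantile normalization of the 4 columns. That normalization moved the median of all genes to -0.0038. A value after quantile normalization is named as the quantile value. Signals of different array rows depend on their probes, so levels are compared between samples of a gene and not between genes. As a guide to faint signals, a dim level of 5.15 was taken from the 95th percentile of 1210 rows of olfactory and vomeronasal receptors. All 44 collagen genes exceeded it in at least 1 group, and Col10a1 was the 1 gene below it in the other.

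Markers of the fibroblast label were bright, with list means from 10.8 in KrasD12 B to 11.01 in WT A. All 10 of 10 fibroblast genes, among them Pdgfra, Pdgfrb, Thy1, Vim and Dcn, lay above the dim level. That alone says little, since 14668 of all 19938 genes exceeded it in at least 1 group. Of the 10 fibroblast genes 4 fell (S100a4, Fbln2, Pdgfrb and Thy1), 2 rose (Fn1 and Pdgfra) and 4 missed the call. Genes of other cells were mixed. Below the dim level in every sample lay, among others, Ptprc of leukocytes (4.04 to 4.29), Epcam of epithelium (4.67 to 4.82), and Pecam1 and Cdh5 of endothelium (4.58 to 5.03). Above it in every sample lay, among others, Cd68 (5.73 to 6.74), Krt8 (6.13 to 6.78), Nkx2-1 (5.48 to 6.18) and Vwf (5.86 to 6.19). Both group means exceeded it for 2 of 9 immune, 6 of 10 epithelial and 4 of 10 endothelial genes. List means ran from 5.02 to 5.06 in KrasD12 and from 4.789 to 4.803 in WT for 9 immune genes, of which 5 exceeded the dim level in some group, from 5.47 to 5.58 and from 5.08 to 5.14 for 10 epithelial genes (8 above), and from 5.36 to 5.42 and from 5.01 to 5.12 for 10 endothelial genes (5 above). They ran from 5.14 to 5.28 and from 4.98 to 4.99 for 8 mesothelial genes (4 above) and from 5.29 to 5.40 and from 4.82 to 4.83 for 8 cartilage genes (5 above). Of the 9 immune genes, Adgre1 and Cd79a rose, with all values below the dim level, and Lyz2 and Csf1r fell, while 5 missed the call. The list had a median difference of 0.61 as deposited and 0.21 on the quantile scale. Smooth-muscle genes differed most, with list means of 7.10 and 7.06 in KrasD12 against 8.06 and 8.05 in WT. Of these 8 genes, all above the dim level in some group, 5 fell. The counts of each list are to be read against 22.4% of all genes that rose and 11.5% that fell. The part of these marker shifts in the collagen differences was not tested. In bulk RNA fewer cells of a type and less RNA per cell cannot be told apart.

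Of the 44 collagen genes, 7 rose and 7 fell, and the other 30 did not pass on both scalings. Col12a1, Col6a2, Col16a1, Col6a1, Col20a1, Col27a1 and Col17a1 rose, and Col28a1, Col5a2, Col1a1, Col8a1, Col5a3, Col4a5 and Col6a5 fell. The rises were 15.9% of the members, against 22.4% of all genes, and the falls 15.9%, against 11.5% of all genes. Members thus were called about as often as other genes (31.8% against 33.9%), with falls and rises in equal number. On the deposited values alone 20 members were higher and 8 lower, against 50.1% and 11.9% of all genes. After quantile normalization alone 7 were higher and 12 lower, against 22.5% and 24.4% of all genes. 3 members changed at least 2-fold on both scalings, Col28a1, Col5a2 and Col12a1, where 2.49% of all genes did. The median difference of the members was 0.26 as deposited and -0.0025 on the quantile scale, at the median of all genes on each scale. In 41 members the samples of the groups did not overlap (93.2%, against 83% of all genes), so separation of the 4 samples alone says little about a gene. The calls depend on every sample: with 1 KrasD12 sample left out, 3 or 4 members rose and 3 or 4 fell, and limma called 0 genes of any kind without WT A or without WT B, although 18 or 19 members then had an unadjusted p under 0.05.

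**Figure D1:**
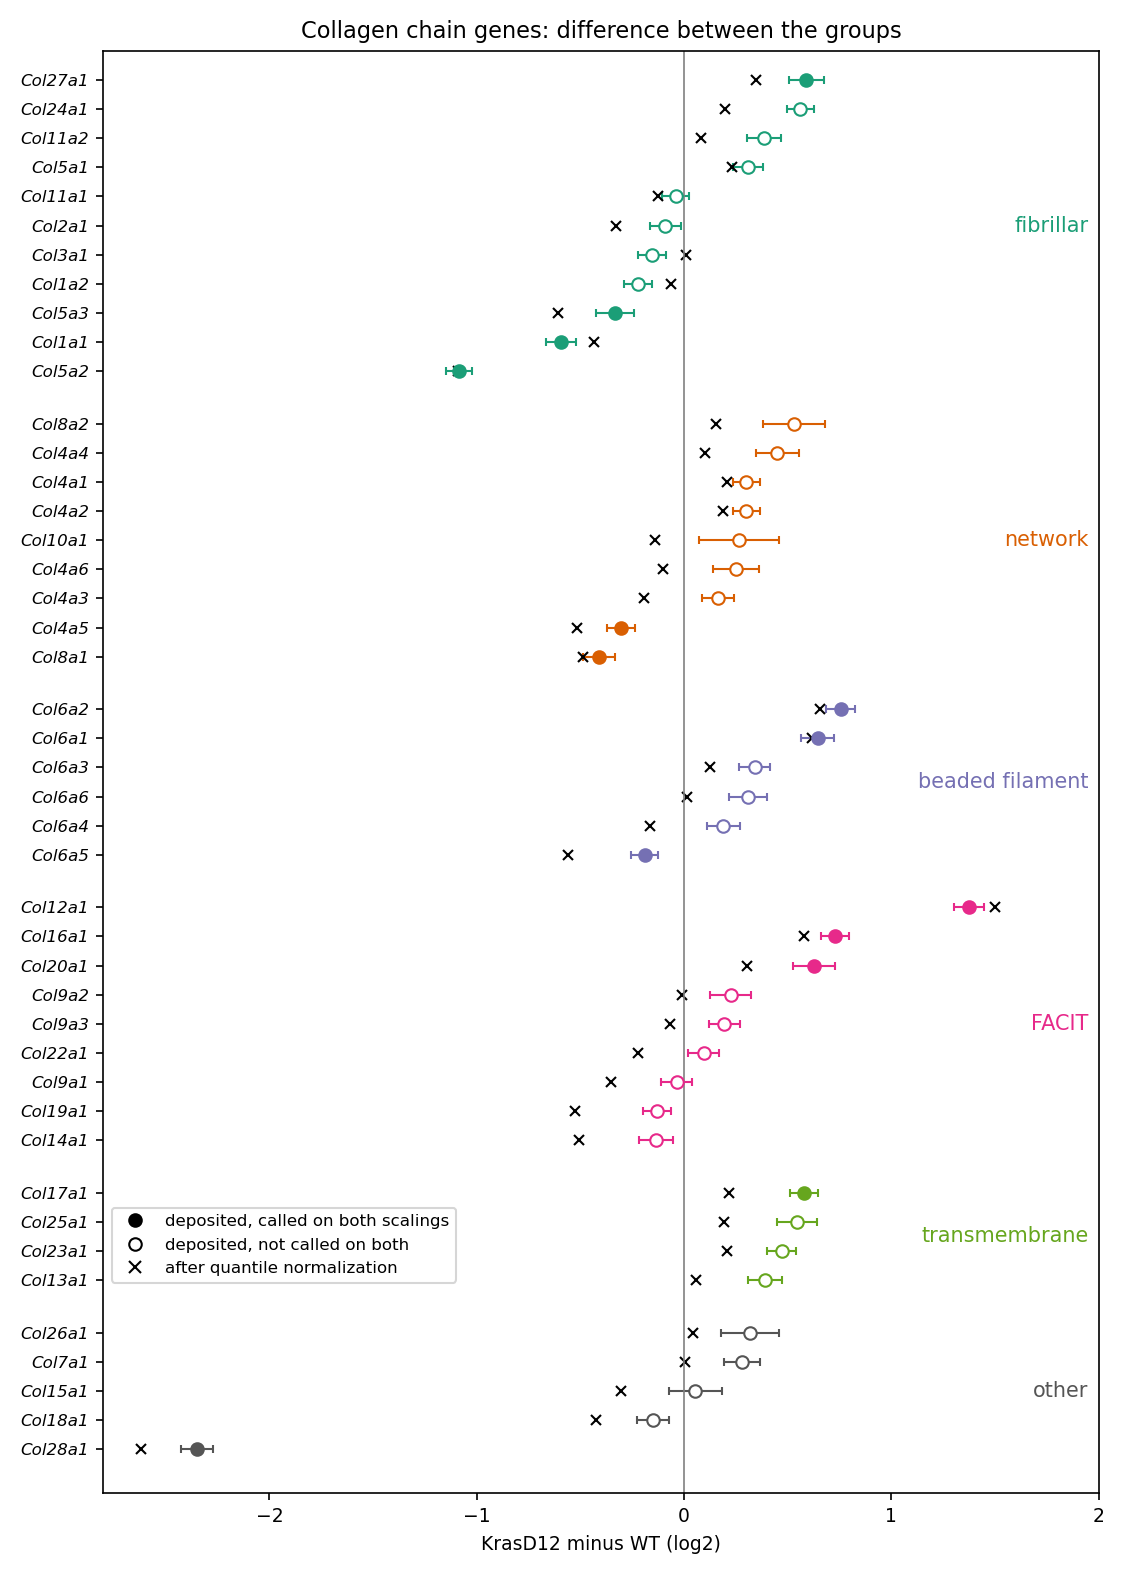
Difference between KrasD12 and WT (log2, horizontal axis) of all 44 collagen genes, by class, as circles with the moderated SE on the deposited values and as crosses after quantile normalization. Filled circles mark the 14 genes called on both scalings, led by Col12a1 (1.38) and Col28a1 (-2.35), and most crosses lie to the left of their circle.

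The largest collagen difference was that of Col28a1, a chain with von Willebrand factor A domains known mainly from peripheral nerve. Its values were 5.74 and 5.86 in KrasD12 A and B and 8.19 and 8.11 in WT A and B. Both KrasD12 samples lay more than 2 log2 units below both WT samples and close to the dim level. The gene fell by 2.35 ± 0.08 (limma adjusted p = 0.000142), a 5.10-fold difference, with a quantile value of -2.62. Background signal compresses a difference when 1 group lies this low. Col28a1 was the only member among the 5 outside the main classes to change on both scalings, where 33.9% of all genes did.

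Upstream sequences are shown for Col28a1, as the largest fall, for Col6a1 and Col6a2, neighbouring genes that rose together, and for Col16a1, a further rise. They come from RefSeq promoters (GRCm38.p6), which held 35 of the 44 members, and give the 250 bases before the most upstream annotated start, 5′ to 3′ on the gene's strand. Capitals mark matches, on either strand, to CCAAT (the CCAAT box), TATAAA (the TATA box), GGGCGG (the GC box bound by Sp1), TGANTCA (the AP-1 element) and AGGAAG (the PEA3 element bound by ETS factors). The windows are chr6:8192618-8192867 (minus strand) for Col28a1, chr10:76726045-76726294 (minus) for Col6a1, chr10:76623631-76623880 (minus) for Col6a2 and chr4:130047590-130047839 (plus) for Col16a1.
Col28a1: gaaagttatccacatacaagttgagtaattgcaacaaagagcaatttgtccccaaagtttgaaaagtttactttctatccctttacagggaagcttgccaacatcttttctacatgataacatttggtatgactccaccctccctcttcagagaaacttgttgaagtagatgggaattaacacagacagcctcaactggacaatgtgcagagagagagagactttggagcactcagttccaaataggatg
Col6a1: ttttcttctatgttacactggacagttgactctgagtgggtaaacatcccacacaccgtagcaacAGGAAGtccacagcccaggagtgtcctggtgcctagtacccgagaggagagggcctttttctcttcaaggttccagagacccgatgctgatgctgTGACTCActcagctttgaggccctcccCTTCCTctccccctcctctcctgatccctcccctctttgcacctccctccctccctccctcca
Col6a2: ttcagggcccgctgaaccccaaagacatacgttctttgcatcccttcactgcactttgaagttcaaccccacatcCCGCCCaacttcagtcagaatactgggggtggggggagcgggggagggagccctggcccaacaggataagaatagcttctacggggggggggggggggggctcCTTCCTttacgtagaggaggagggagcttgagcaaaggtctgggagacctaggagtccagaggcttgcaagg
Col16a1: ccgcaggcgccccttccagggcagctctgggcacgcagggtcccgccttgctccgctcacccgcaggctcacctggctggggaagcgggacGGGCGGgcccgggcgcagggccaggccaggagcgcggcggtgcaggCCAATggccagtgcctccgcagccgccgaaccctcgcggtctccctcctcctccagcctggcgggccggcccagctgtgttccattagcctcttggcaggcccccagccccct

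The Col28a1 window held none of the 5 strings and had a G and C content of 40.4%, against a median of 52.4% over all RefSeq windows. In Col6a1 an AP-1 element began 90 bases before the start and PEA3 elements 185 and 63 bases before it. Col6a2 held a GC box and a PEA3 element, beginning 175 and 72 bases before its start, and Col16a1 a GC box and a CCAAT box at 159 and 113 bases. The strings are common: a window with CCAAT was found for 37.5% of 27025 genes, one with GGGCGG for 35.4%, AGGAAG for 32.3%, TATAAA for 14.3% and TGANTCA for 7.8%. Among the 35 members the counts were 13, 21, 10, 5 and 1 in that order. Of the 6 members that rose and had a window, 2 held CCAAT, 3 GGGCGG, 2 AGGAAG, 1 TATAAA and 1 TGANTCA, and of the 5 that fell, 2 held CCAAT, 4 GGGCGG and 0 any of the others. A match describes letters in a window, not binding.

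Among the fibrillar chains, Col5a2, Col1a1 and Col5a3 fell and Col27a1 rose, while 7 of 11 missed the call. With 4 of 11 called, the class lay near the 33.9% of all genes. The median difference of the class was -0.09 as deposited and -0.06 on the quantile scale. Col5a2 encodes a chain of collagen V, the minor fibrillar collagen that nucleates collagen I fibrils. It stood at 9.71 and 9.69 in KrasD12 and at 10.78 and 10.79 in WT, so that A and B of a line nearly coincided and the lines lay a full log2 unit apart. Col5a2 fell by 1.09 ± 0.06 (limma adjusted p = 0.000494), or 2.12-fold, with the same size after quantile normalization (-1.09).

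Col1a1, the major chain of collagen I, read 12.09 and 12.17 in KrasD12 and 12.76 and 12.69 in WT. Both KrasD12 samples were below both WT samples, and Col1a1 fell by 0.60 ± 0.07 (limma adjusted p = 0.00198), a 1.51-fold difference, with a quantile value of -0.44. Its partner Col1a2 read 12.33 and 12.40 in KrasD12 and 12.59 and 12.58 in WT. That difference of -0.22 ± 0.07 passed on the deposited values (limma adjusted p = 0.0358) but not after quantile normalization (-0.06, limma adjusted p = 0.504). Col3a1, the chain of the homotrimeric collagen III, read 11.40 and 11.42 against 11.53 and 11.60. Its difference was -0.16 ± 0.07 (limma adjusted p = 0.0972), and the quantile value was 0.0075. Genes with a mean between 11 and 12 had a median difference of -0.15 on the deposited values, which is the size of the Col3a1 difference.

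Col5a1, the chain present in most collagen V molecules, did not fall with Col5a2. It read 9.40 and 9.51 in KrasD12 and 9.13 and 9.16 in WT, higher in both KrasD12 samples by 0.31 ± 0.07 (limma adjusted p = 0.0151), and missed the call after quantile normalization (0.23, limma adjusted p = 0.0526), while median centring turned its sign (-0.04). Col5a3, the third collagen V chain, read 6.72 and 6.93 against 7.14 and 7.18. It fell by 0.34 ± 0.09 (limma adjusted p = 0.0245), with a larger quantile value of -0.61. The 3 chains of collagen V thus did not move as a unit.

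Col27a1, a fibrillar chain of cartilage and developing tissue, read 7.41 and 7.58 in KrasD12 and 6.88 and 6.93 in WT. It rose by 0.59 ± 0.08 (limma adjusted p = 0.00308), or 0.35 after quantile normalization. Of the collagen XI chains, which resemble collagen V, Col11a1 was nearly level, at 8.90 and 8.90 in KrasD12 and 8.93 and 8.95 in WT (-0.04 ± 0.06, limma adjusted p = 0.612). Col11a2 (0.39) and Col24a1 (0.56) passed on the deposited values alone, and Col2a1, the cartilage fibril chain, differed by -0.09 there and passed after quantile normalization alone (-0.33).

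**Figure D2:**
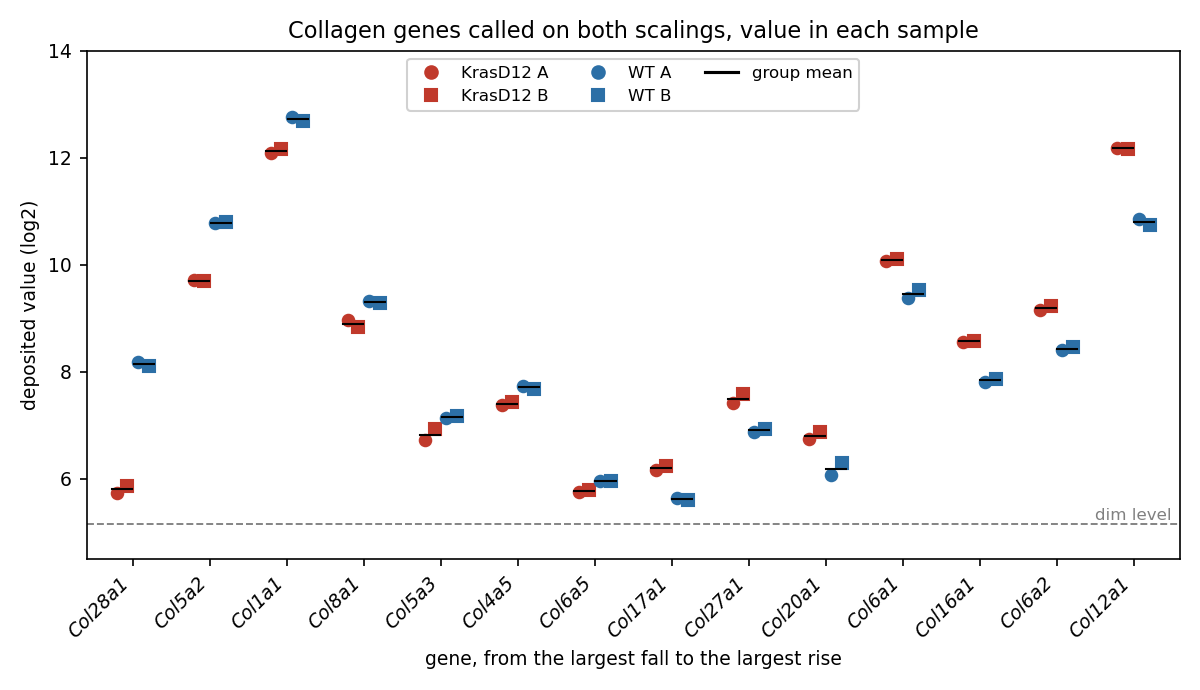
Deposited log2 value (vertical axis) of the 14 collagen genes called on both scalings in each of the 4 samples, KrasD12 in red and WT in blue, with short lines for the group means and a dashed line at the dim level of 5.15. A and B lie close together in each gene. The widest gap is that of Col20a1 in WT (6.07 and 6.29), and the widest among the KrasD12 pairs that of Col5a3 (6.72 and 6.93).

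Of the 9 network-forming chains 0 rose and 2 fell on both scalings, where 22.4% and 11.5% of all genes did. Col8a1, a short-chain collagen of vessel walls and membranes, read 8.96 and 8.83 in KrasD12 and 9.32 and 9.29 in WT and fell by 0.41 ± 0.08 (limma adjusted p = 0.00691). Col4a5, a basement membrane chain, read 7.37 and 7.43 against 7.73 and 7.68 and fell by 0.31 ± 0.07 (limma adjusted p = 0.0129). Both falls were larger after quantile normalization, at -0.49 for Col8a1 and -0.52 for Col4a5.

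Col4a1 and Col4a2, which make the collagen IV of most basement membranes, shifted together. Col4a1 read 8.97 and 8.96 in KrasD12 and 8.64 and 8.69 in WT. Col4a2 read 8.77 and 8.75 against 8.46 and 8.46. Each was higher in both KrasD12 samples by 0.30, with an SE of 0.07 and 0.06, and passed on the deposited values (limma adjusted p = 0.0121 and 0.0112). After quantile normalization the differences were 0.21 and 0.19 and missed the call (limma adjusted p = 0.0539 and 0.0702), and centring the columns on their medians turned both to -0.05. In RefSeq the pair lies on opposite strands of chromosome 8 with annotated starts 21 bases apart. Col4a3, Col4a4 and Col4a6, chains of specialised basement membranes, and Col8a2 and Col10a1 missed the call, with deposited differences from 0.17 to 0.53, which turned sign after quantile normalization for Col4a3, Col4a6 and Col10a1. The class median was 0.27 as deposited and -0.10 on the quantile scale.

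In collagen VI, Col6a1 and Col6a2 rose, Col6a5 fell and 3 of 6 chains missed the call, where 22.4% of all genes rose and 11.5% fell. Col6a2 read 9.15 and 9.22 in KrasD12 and 8.40 and 8.46 in WT and rose by 0.76 ± 0.07 (limma adjusted p = 0.00108), a 1.69-fold difference. Col6a1 read 10.07 and 10.11 against 9.37 and 9.52 and rose by 0.65 ± 0.08 (limma adjusted p = 0.0021), or 1.56-fold. The KrasD12 samples of both genes lay above the WT samples by at least 0.5 log2 units, and the quantile values were 0.65 for Col6a2 and 0.62 for Col6a1. Col6a3, the large chain that completes the common collagen VI monomer, read 7.66 and 7.67 against 7.27 and 7.38. It was higher by 0.34 ± 0.07 on the deposited values (limma adjusted p = 0.0109), a difference that shrank to 0.13 after quantile normalization (limma adjusted p = 0.223) and to -0.005 after median centring.

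Col6a4, Col6a5 and Col6a6 encode chains that can take the place of the Col6a3 product. Col6a5 read 5.76 and 5.78 in KrasD12 and 5.96 in each WT sample and fell by 0.19 ± 0.06 (limma adjusted p = 0.0481), with a quantile value of -0.56. That call lies at the threshold: with the replicate block the adjusted p was 0.0709, and its second row read 4.37 and 4.28 against 4.29 and 4.46, below the dim level. Col6a4 and Col6a6 were higher by 0.19 and 0.31 as deposited, lower by median centring (-0.16 and -0.04), and missed the call.

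Of the 9 FACIT chains 3 rose and 0 fell on both scalings, where 22.4% and 11.5% of all genes did. Col12a1, whose product coats collagen I fibrils in tissue under load, read 12.18 and 12.17 in KrasD12 and 10.85 and 10.75 in WT. It was the largest rise among the 44 genes, by 1.38 ± 0.07 (limma adjusted p = 0.000382), or 2.59-fold, and 1.498 after quantile normalization. This rise went against the shift of bright genes, whose median difference was -0.15 at means between 11 and 12. Col16a1, a FACIT chain of fibroblasts and smooth muscle, read 8.56 and 8.58 against 7.81 and 7.87 and rose by 0.73 ± 0.07 (limma adjusted p = 0.00106), with a quantile value of 0.58. Col20a1 read 6.74 and 6.87 against 6.07 and 6.29 and rose by 0.63 ± 0.10 (limma adjusted p = 0.00448), a rise that was 0.30 after quantile normalization (limma adjusted p = 0.0425). The call was lost after median centring (limma adjusted p = 0.0506). Like those of several other members, it was also lost on leaving out KrasD12 A or KrasD12 B (differences of 0.69 and 0.56).

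The other FACIT chains did not rise with them. Col14a1, which like Col12a1 binds collagen I fibrils, read 5.60 and 5.72 in KrasD12 and 5.85 and 5.74 in WT. Its difference of -0.14 ± 0.08 was not called on the deposited values (limma adjusted p = 0.197) and was -0.51 after quantile normalization, where it passed (limma adjusted p = 0.00347). Col19a1 (-0.13 deposited and -0.52 as the quantile value) and Col9a1 (-0.04 and -0.35) likewise passed on the quantile scale alone. Col9a2, Col9a3 and Col22a1 passed on neither scale, and each changed sign between the scales.

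All 4 transmembrane chains were higher in both KrasD12 samples on the deposited values, where 50.1% of all genes were called higher. Of these 4 chains 1 rose on both scalings, where 22.4% of all genes did. Col17a1, the hemidesmosomal collagen of epithelia, read 6.17 and 6.24 against 5.64 and 5.61 and rose by 0.58 ± 0.07 (limma adjusted p = 0.00185). Its quantile value of 0.22 passed narrowly (limma adjusted p = 0.0462), and the call was lost after cyclic loess, with a trend in eBayes and with the replicate block (limma adjusted p = 0.0568, 0.0971 and 0.0665). The values lie near those of faint rows, whose median difference was 0.39 at means between 5 and 6 on the deposited scale, against 0.58 for Col17a1. Of the 10 epithelial markers 2 rose, Sftpc and Sftpb, with Sftpc below the dim level in WT, 0 fell and 8 missed the call. Over all genes 22.4% rose and 11.5% fell. Epcam and Krt19 were lower by quantile values alone (-0.31 and -0.48). The list median was 0.51 as deposited and 0.17 on the quantile scale, and its part in the Col17a1 difference was not tested. Col23a1, Col13a1 and Col25a1 differed by 0.47, 0.39 and 0.55 on the deposited values and by 0.21, 0.06 and 0.19 as quantile values.

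Of the chains outside the classes other than Col28a1, Col18a1, the basement membrane collagen that contains endostatin, read 6.92 and 6.80 in KrasD12 and 7.04 and 6.98 in WT. It differed by -0.15 ± 0.08 on the deposited values (limma adjusted p = 0.138) and was lower after quantile normalization (-0.43, limma adjusted p = 0.00724). Col7a1, the anchoring fibril chain of skin, was higher by 0.28 on the deposited values, by 0.0038 as the quantile value and by -0.07 after median centring. Col15a1 and Col26a1 passed on neither scale, and the samples of the groups overlapped for Col15a1.

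Levels set how the 44 genes are to be read. The 13 members with a mean above 8 included 7 of the 14 calls, and the 31 fainter members the other 7. In the 5 members with a mean above 10 the median difference was -0.22, against -0.10 for all 864 genes of that level, and 3 of the 5 were called, against 48.1%. At means of 8 to 10 it was 0.31 in 8 members against 0.11 in all genes, and 0.22 against 0.0081 after quantile normalization, with 4 of the 8 called, against 46.2%. At means of 6 to 8 members and all genes had a median of 0.25 alike, and 5 of 21 members were called, against 37.0%. Below 6 the medians were 0.22 in 10 members and 0.36 in all genes, and 2 of the 10 were called, against 24.5%.

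**Figure D3:**
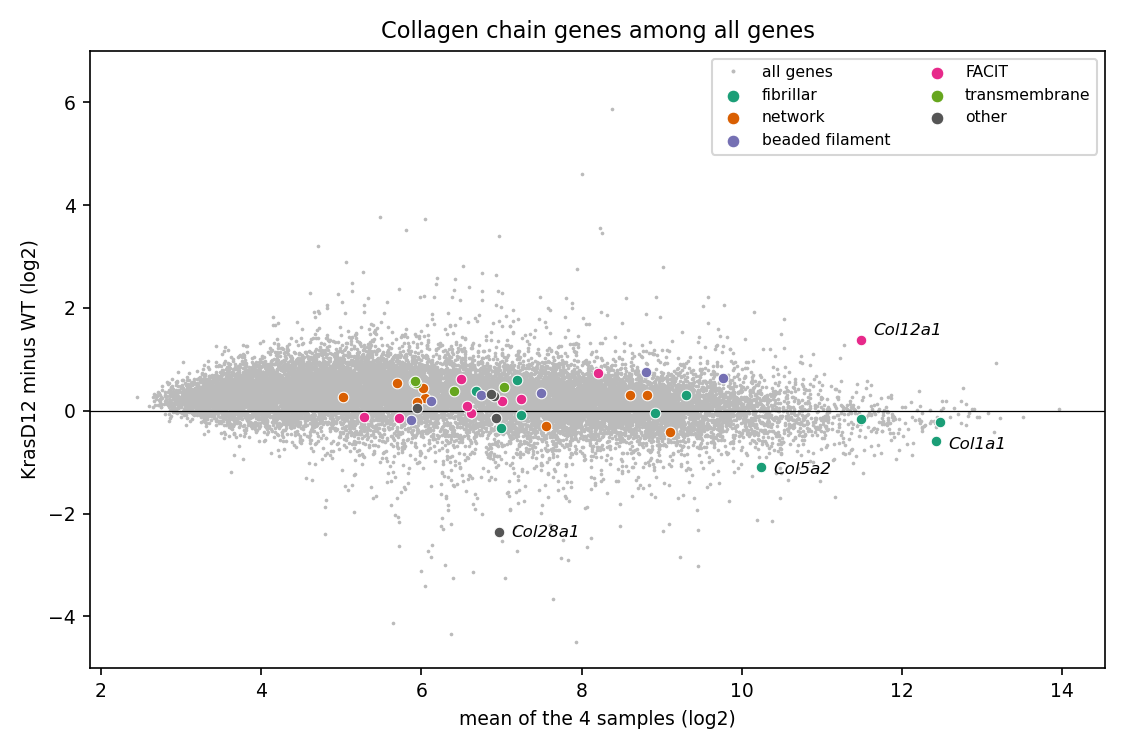
Difference between KrasD12 and WT (log2, vertical axis) against the mean of the 4 samples (log2, horizontal axis) for all 19938 genes as grey points and the 44 collagen genes coloured by class, on the deposited values. The grey cloud lies above 0 for faint genes and slightly below it for bright ones, and Col12a1, Col28a1, Col5a2 and Col1a1 are labelled.

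The balance between partner chains was read as the log2 value of one chain minus that of the other within each sample. Its absolute size depends on the probes, so that only its change between the lines is a measurement. For 10 pairs, chosen after the values had been seen, the exact two-sided permutation test over samples cannot give a p below 0.333, so the values are given without one. Col5a1 minus Col5a2 was -0.31 and -0.18 in KrasD12 and -1.65 and -1.63 in WT. This was the widest change, of 1.40 log2 units towards Col5a1, and it was 1.32 after quantile normalization. Col5a1 minus Col5a3 moved in the same direction, from 1.99 and 1.98 in WT to 2.68 and 2.58 in KrasD12. This change of 0.645 was 0.84 after quantile normalization.

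For the collagen I transcripts, Col1a1 minus Col1a2 was -0.24 and -0.23 in KrasD12 and 0.17 and 0.11 in WT, a change of -0.38 that was -0.37 after quantile normalization. Col4a1 minus Col4a2 stayed at 0.20 and 0.21 in KrasD12 and 0.18 and 0.23 in WT, and this was the 1 pair of the 10 whose groups overlapped. Since the groups did not overlap in 83% of all single genes either, separation of a pair alone says little. Col6a1 minus Col6a2 read 0.92 and 0.89 against 0.97 and 1.06, a small change of -0.11 that was -0.04 after quantile normalization. Col6a1 minus Col6a3 rose from 2.10 and 2.14 in WT to 2.41 and 2.44 in KrasD12, by 0.305, or 0.49 after quantile normalization. Col8a1 minus Col8a2 was lower in KrasD12 (3.13 and 2.74) than in WT (4.07 and 3.68), with a wide gap between A and B in each line. This change of -0.94 was -0.64 after quantile normalization. The remaining pairs changed by -0.56 (Col4a5 minus Col4a6), -0.43 (Col11a1 minus Col11a2) and -0.29 (Col4a3 minus Col4a4). After quantile normalization these changes were -0.415, -0.21 and -0.295 in this order.

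**Figure D4:**
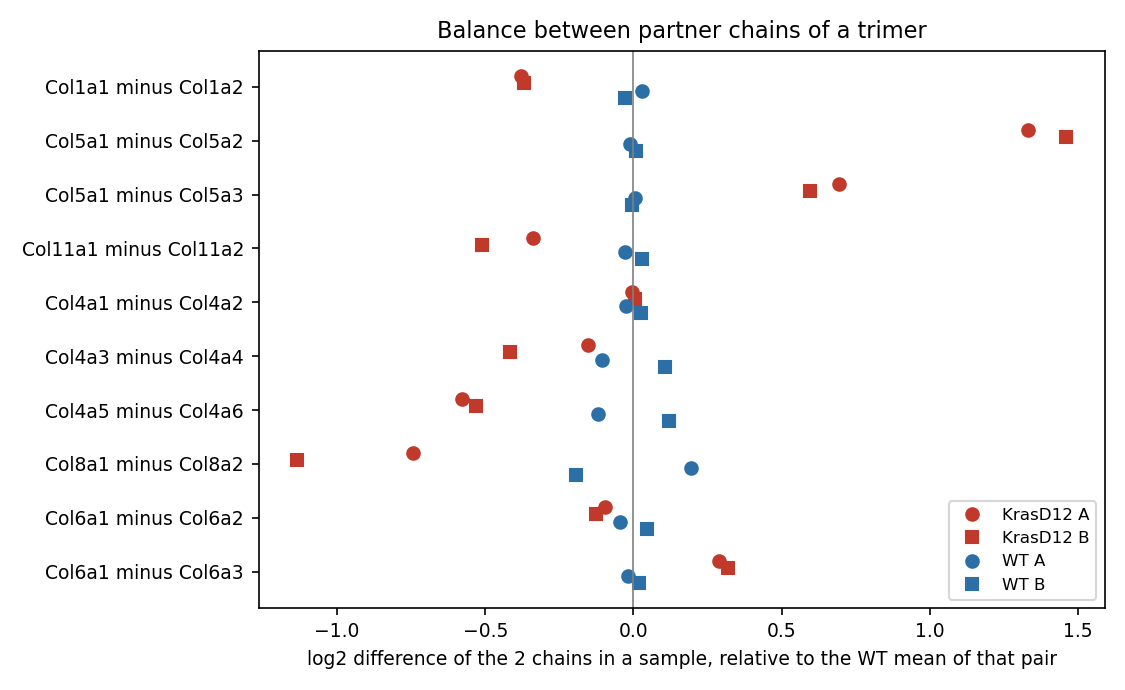
Log2 difference between 2 partner chains in each sample, with the WT mean of the pair set to 0 (horizontal axis), for 10 pairs of chains, KrasD12 in red and WT in blue. The KrasD12 samples of Col5a1 minus Col5a2 lie farthest from the WT samples, and the 4 samples of Col4a1 minus Col4a2 lie together.

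8 pairs of members are next to each other among protein-coding genes of the RefSeq table (GRCm38.p6), with these differences on the deposited values. Col6a2 and Col6a1 were higher by 0.76 and 0.65 and Col4a1 and Col4a2 by 0.30 each. Col3a1 and Col5a2, neighbours on chromosome 1, differed by -0.16 and -1.09, and Col4a6 and Col4a5, on opposite strands of the X chromosome, by 0.25 and -0.31 as deposited but by -0.10 and -0.52 as quantile values. Of the Col6a6, Col6a5 and Col6a4 row of genes on chromosome 9, the middle gene fell by 0.19 while the outer ones were higher by 0.31 and 0.19 on the deposited values, with quantile values of 0.02, -0.56 and -0.16 in this order. Col4a4 and Col4a3 differed by 0.45 and 0.17, and Col9a1 and Col19a1 by -0.04 and -0.13.

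Genes that modify, cross-link, bind or degrade collagen were counted as the surrounding pathway. Of 29 assembly genes 12 fell and 2 rose, while 15 missed the call, with a median difference of -0.12 (-0.17 as the quantile value). P4ha3, a subunit of the prolyl hydroxylase that stabilises the helix, fell by 1.43, from 6.93 and 6.99 in WT to 5.53 and 5.54 in KrasD12. Lox, which cross-links collagen, fell by 0.96, and the lysyl hydroxylase gene Plod1 rose by 1.29. The collagen chaperone gene Serpinh1 was level (0.02). Of 9 collagen receptor genes 3 fell and 2 rose. Itga2, the collagen-binding integrin subunit, read 5.24 and 5.20 in KrasD12 and 7.28 and 7.32 in WT and fell by 2.08, Itga1 fell by 1.04 and Itga11 rose by 0.79. Of 10 genes of collagen degradation 4 rose and 3 fell, among them the gelatinase gene Mmp2, which rose by 1.07, and the collagenase genes Mmp13 and Mmp8, which fell by 2.25 and 0.97. The KrasD12 means of Mmp13 and Mmp8 lay below the dim level, where background signal compresses a difference. All these counts are to be read against 22.4% of genes that rose and 11.5% that fell. The genes Adamts2, Fkbp10, Loxl2 and Gp6 of the fixed lists are not analysed here.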

How the data were processed

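Expression was measured in 4 samples of total RNA on 4 arrays. The authors deposited 1 log2 value per array row and sample. The log2 scale was read from the values, which run from 2.28 to 14.95. Per the submitters' processing notes the Transcriptome Analysis Console was used, whose version and normalization method the sources used here do not state. For arrays, their number limits the precision, here to 2 residual degrees of freedom.

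Of 28944 rows, 21789 had 1 gene symbol, 1621 several and 5534 none, by the platform annotation, and 21698 of the first matched the GRCm38.p6 gene table for current names. Rows with several symbols or none were left out. The test was that of limma 3.58.1 under R 4.3.3 (two-sided lmFit and eBayes with group as the term), run as deposited and again after quantile normalization of all rows. The script was tested on simulated data. Pathway genes were named as the 3 called genes of largest size in each list (Serpinh1 was added after its value was seen), and members by the call on both scalings and as main partners of a trimer. The classes, lists, pairs and members were chosen with earlier results of these data known. Plots used Python 3.11.15, pandas 2.3.3 and matplotlib 3.10.9. Alternatives were single scalings, median centring, cyclic loess, the sample letter as a replicate block, leaving out dim genes, robust eBayes, eBayes with a trend, averaging the rows of a gene, a 2-fold size and each sample left out.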

Additional observations from a re-analysis of the deposited data

How the results depend on the processing

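Against 7 rises and 7 falls on both scalings, the deposited values alone gave 20 rises, and the filter on dim genes gave 12, adding Col23a1, Col24a1, Col4a1, Col4a2 and Col5a1. Falls numbered 12 after quantile normalization alone, 16 after median centring and 12 after cyclic loess. The counts over all 19938 genes moved too. Falls there numbered 4861, 6657 and 4933 in these runs, against 2298 on both scalings. Rises over all genes numbered 9991 on the deposited values alone, against 4459 on both scalings, and 3754 among the genes that the dim filter kept. A size of 2-fold left 1 rise (Col12a1) and 2 falls (Col28a1 and Col5a2). With 1 sample left out the rises ranged from 0 to 4 and the falls from 0 to 4, and both were 0 without WT A or WT B, where the smallest limma adjusted p over all genes was 0.0552 and 0.053. With the replicate block 6 rose and 6 fell, all 12 among the 14 called, and Col17a1 (adjusted p = 0.0665 on the quantile values) and Col6a5 (0.0709) lost their call. The labels do not say what the letters A and B stand for. Their deviations correlated at 0.0132 across genes between the lines, and a shared batch was not tested. Col6a5 also lost its call with a trend, with robust eBayes and with the mean of its rows (-0.12), Col17a1 with a trend and after cyclic loess, and Col20a1 after median centring (adjusted p = 0.0506). The trend in turn added rises of Col4a1, Col4a2 and Col5a1, for 9 rises among the members and 4874 among all genes. Col5a1 also passed after cyclic loess alone (limma adjusted p = 0.0382). Leaving out either KrasD12 sample cost Col6a1, Col4a5, Col6a5, Col17a1 and Col20a1 their call. Col1a1 and Col5a3 lost it without KrasD12 A, and Col27a1 and Col8a1 without KrasD12 B. Such a fit leaves 1 sample in a group, so a lost call need not mean a changed difference. Without KrasD12 A and without KrasD12 B, Col6a1 differed by 0.665 and 0.625, against 0.645 with all samples. Col5a3 differed by -0.23 and -0.44, against -0.335.

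None of the 14 called genes changed sign under median centring, cyclic loess or averaging of rows. The other runs could not turn a deposited sign and say nothing on this point. The call already asks for the same sign on both scalings, and the remaining fits on all samples keep the deposited difference. The samples of the groups did not overlap in these genes, so leaving out a sample could not turn it either. Among uncalled members, quantile normalization, cyclic loess and median centring turned Col4a3 (-0.19, -0.21 and -0.18), Col4a6 (-0.10, -0.12 and -0.095), Col6a4 (-0.16, -0.17 and -0.155), Col9a2 (-0.0088, -0.030 and -0.12), Col9a3 (-0.068, -0.083 and -0.15), Col10a1 (-0.14, -0.14 and -0.08), Col15a1 (-0.305, -0.32 and -0.29) and Col22a1 (-0.22, -0.23 and -0.25). Quantile normalization turned Col3a1 (0.0075), and cyclic loess and centring Col7a1 (-0.0084 and -0.065). Centring alone turned Col4a1 and Col4a2 (-0.045 each), Col5a1 (-0.035), Col6a3 (-0.005), Col6a6 (-0.035) and Col26a1 (-0.025). With 1 sample left out, Col15a1 ranged from -0.09 to 0.20 and Col9a1 from -0.095 to 0.025. Row signals limit faint genes: differences near the dim level of 5.15 are compressed.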
